A study of Mus musculus with 9 samples.

Results

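EDL and GS motor neurons (MNs) were compared on 6 of the 9 arrays of the series, 3 from mice in which the extensor digitorum longus (EDL) had been injected and 3 from mice in which the gastrocnemius (GS, written GC in the sample titles) had been injected. The members were chosen by the muscle in the sample title alone, and all 65956 transcript clusters that are not array controls were tested on these 6 arrays. The 3 arrays of the tibialis anterior did not enter the fit. The FVB mice were wild type, came from 1 litter and included both sexes, with no transgene and no drug. At postnatal day 14 wheat germ agglutinin coupled to horseradish peroxidase was injected into the same muscle of both hindlegs, at a volume of 1 µl into the EDL and 3 µl into the GS, and the cord was taken 48 h later. Stained cell bodies were cut out by laser capture, and the RNA of 1 mouse gave 1 array. A larger injected volume and the GS muscle cannot be told apart in this design. The sample labels give 20 µm sections of the cervical cord, whereas the methods give 35 µm sections without a cord level, and the study elsewhere places these cell bodies in the lumbar cord. Mice are named by their numbers in the titles (EDL mice M14, M33 and M11, GS mice M30, M13 and M31), and the labels do not say what the numbers stand for.

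A motor pool is the group of MNs that supplies a single muscle, and pools of the limb lie in the lateral motor column. In the embryo, MNs of the lateral division of this column send axons to dorsal limb muscles, such as the EDL, which lifts the toes. MNs of the medial division send axons to ventral limb muscles, such as the GS, which extends the ankle. Transcription factors of the LIM and Hox families, together with guidance receptors and cadherins on the cell surface, are known to set these identities. Adult pools also differ in the size, firing and metabolism of their MNs. The study took the EDL pool as resistant and the GS pool as intermediate in spinal muscular atrophy (SMA), and the comparison asked how their transcripts differ in healthy mice.

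The arrays carried the transcripts of MNs, together with those of neighbouring cells. Of 13 measured MN identity genes, 11 lay above the negative control probe sets, and all 14 astrocyte, all 18 oligodendrocyte and 16 of 18 endothelial and pericyte marker genes did so too. Above here means that the pool with the higher mean exceeded 6.18 on the log2 scale, the highest of the per-array medians of the 5222 negative controls. Positive controls were told from negative ones with a ROC area of 0.844 to 0.854 on the EDL arrays and 0.831 to 0.838 on the GS arrays. These ranges did not overlap, with an exact permutation p = 0.1 (two-sided). This is the smallest p that 3 against 3 arrays allow, so the test cannot show whether signal quality goes with the pool beyond these arrays. On these arrays the control medians differed between the pools too, without overlap. Those of the positive controls were higher in EDL (10.82 to 10.99 against 10.71 to 10.81, difference of the means 0.149). Those of the negative controls were lower (5.983 to 6.120 against 6.124 to 6.181, difference -0.11). The part of these shifts in the differences of bright and of dim genes was not tested. The GS array of M31 stood apart on the principal component that held 35.2% of the variance, at 53.6 against -17.1 to -0.967 for the other 5. EDL mouse M11 carried Y-linked transcripts (Eif2s3y 8.40, against 5.36 to 5.41 on the other 5 arrays) and lacked Xist (6.03, against 13.22 to 13.46). It was the only mouse of the 6 with this pattern.

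No transcript cluster differed between EDL and GS MNs after Benjamini-Hochberg adjustment in limma (0 of 65956, smallest adjusted p = 0.141). At an unadjusted p under 0.05, the threshold of the study's methods, 2488 clusters (3.77%) were higher and 2699 (4.09%) lower in EDL. Both shares together make 7.86% of the clusters, and none of the differences below passed after adjustment. The split between the directions followed the scaling. It was 3724 higher and 1811 lower with each array centred on its median, and 3230 and 2075 after quantile normalization. Among the 11427 genes with a single symbol that lay above the negative controls, 970 (8.49%) were higher and 370 (3.24%) lower in EDL at this threshold, together 11.7%. The values of the pools did not overlap in 1298 (11.4%) and 576 (5.04%) of them, and in 5.18% and 6.65% of all clusters. The mean was higher in EDL for 56.2% and lower for 43.6% of the named genes. In the following, a value in parentheses after the signal of the pools is the log2 difference EDL minus GS with its SE from the fit. Equal values within a pool, found in 36% of the clusters, lower this SE. Genes called higher or lower had an unadjusted p under 0.05, their adjusted p ran from 0.144 to 0.63, and a gene named below at p under 0.05 kept this threshold with each of the 6 mice left out in turn unless stated otherwise. The shares of named genes above the controls are the background against which each gene list below is read, although some lists also count members below the controls, beside the median difference of 0.01 over the same genes. Their 5th and 95th percentiles were -0.18 and 0.25. The volcano plot of named genes shows how the larger differences spread on the EDL side.

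**Figure D1:**
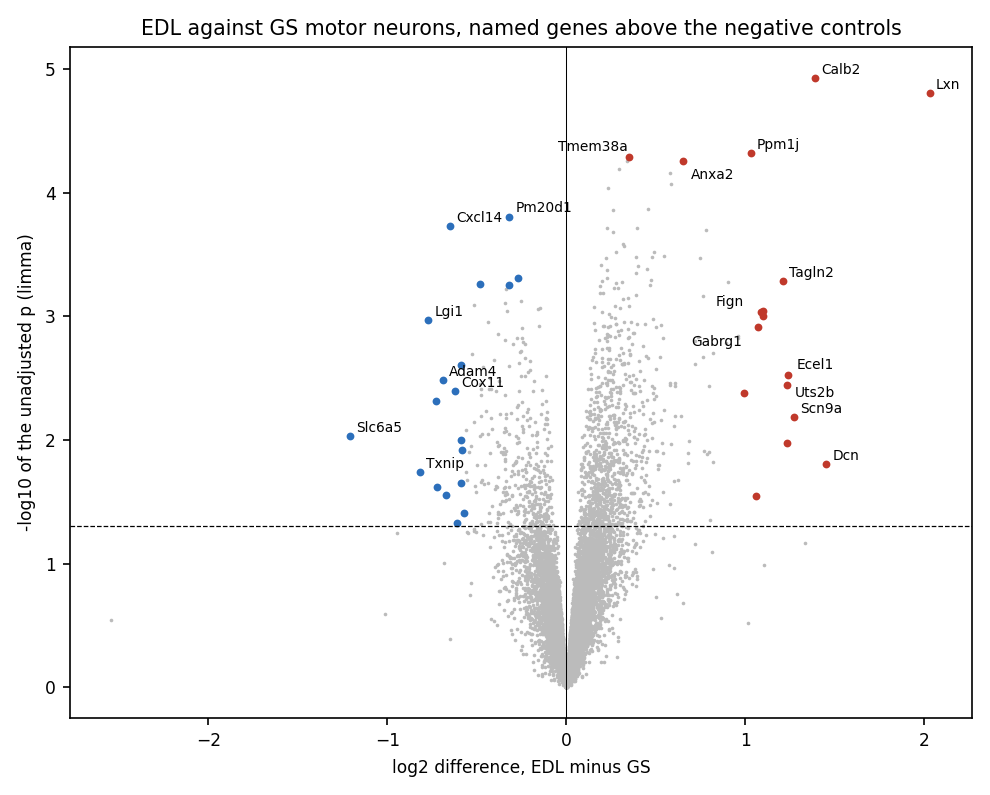
Each point is 1 of 11427 named genes above the negative controls, with the log2 difference between EDL and GS MNs on the x axis and -log10 of the unadjusted limma p on the y axis, and the dashed line marks 0.05. Red and blue points are the genes chosen by size and by p on the side higher and lower in EDL. Among the coloured points Lxn reaches 2.03 on the EDL side and Slc6a5 -1.21 on the GS side.

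The largest differences at p under 0.05 were those of genes higher in EDL MNs. Lxn, the gene of latexin, an inhibitor of carboxypeptidases, had a log2 signal of 13.33, 13.56 and 13.81 in EDL mice M14, M33 and M11 and of 11.56, 11.56 and 11.48 in GS mice M30, M13 and M31. It was 2.03 higher in EDL on the log2 scale, or 4.1-fold (standard error, SE, 0.13, limma adjusted p = 0.144). The lowest EDL mouse lay far above the highest GS mouse, and the difference was 2.01 among mice with numbers under 20 (EDL mice M14 and M11 against GS mouse M13 alone) and 2.05 among those numbered 30 or more (EDL mouse M33 alone against GS mice M30 and M31). With 1 mouse on a side, values split by number are given without a test. Calb2, which encodes the calcium-binding protein calretinin, read 14.77, 14.72 and 14.82 in EDL and 13.54, 13.36 and 13.25 in GS (difference 1.39, SE 0.08, adjusted p = 0.144). Necab1, another calcium-binding protein gene, was 1.10 higher (SE 0.16). Parvalbumin (Pvalb) went the other way, at 7.70 to 7.95 in EDL against 8.23 to 8.67 in GS (-0.54, SE 0.14). Of 23 measured genes of calcium-binding proteins 3 were higher and 1 lower at p under 0.05, with a median of -0.01, and 2 were lower without GS mouse M31. The promoter of Lxn is printed because no other named gene past the threshold differed as much. It covers 300 bases across the start site, chr3:67463858-67464157, minus strand, in RefSeq on GRCm38.p6. A GC box (GGGCGG, searched on both strands) stands in capitals, 54 bases before the start site, and the same letters occur in 35.7% of 32851 promoters of this length.
Lxn: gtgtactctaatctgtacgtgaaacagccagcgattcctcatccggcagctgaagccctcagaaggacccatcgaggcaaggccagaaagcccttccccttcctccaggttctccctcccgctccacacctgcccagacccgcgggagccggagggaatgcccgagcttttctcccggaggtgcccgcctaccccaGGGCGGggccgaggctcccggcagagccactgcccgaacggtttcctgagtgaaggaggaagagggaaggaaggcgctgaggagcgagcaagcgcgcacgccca

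Scn9a, a voltage-gated sodium channel gene, had 9.67, 8.85 and 8.67 in EDL and 7.83, 7.62 and 7.92 in GS (difference 1.27, SE 0.29, adjusted p = 0.391). EDL mouse M14 was the highest of the 6, and the difference was 0.96 without it. Gabrg1, a subunit of the GABA-A receptor, read 11.39, 11.12 and 11.37 against 10.54, 10.09 and 10.03 (difference 1.07, SE 0.16), and the receptor subunit gene Gabrb1 was 0.50 higher (SE 0.13). Gabrg3, another subunit gene of this receptor, was on the lower side, at 6.50 to 6.85 in EDL against 7.02 to 7.03 in GS (-0.38, SE 0.10). Of 37 measured receptor genes for glutamate, GABA and glycine 3 were higher and 2 lower, with a median of 0.00. Without GS mouse M13 these counts were 7 and 3, without EDL mouse M33 they were 3 and 5, and without GS mouse M31 they were 3 and 4. Among 15 sodium channel genes Scn9a was the only one at p under 0.05, and 2 passed without GS mouse M30. On both lists the share of higher genes was near the background of 8.49%. Tagln2, a transgelin that binds actin, was at 9.65 to 10.18 in EDL and 8.58 to 8.75 in GS (difference 1.21, SE 0.16, adjusted p = 0.216). Fign, which encodes the microtubule-severing protein fidgetin, gave 8.80 to 9.34 against 7.82 to 8.03 (difference 1.09, SE 0.16). Annexin A2 (Anxa2) was 0.65 higher with a tight spread (11.46 to 11.56 against 10.78 to 10.94, SE 0.05), and S100a10, whose product forms a complex with it, was 0.21 higher (SE 0.06).

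The remaining genes among the 15 largest differences on this side were Dcn (1.45), Ecel1 (1.24), Serpinb1a (1.23), Uts2b (1.23), Tmem132d (1.10), Clca3a1 (1.06), Ppm1j (1.03) and Vwa5a (0.99). Decorin (Dcn), a matrix proteoglycan gene of fibroblasts, had 8.95, 9.04 and 9.27 in EDL and 7.28, 7.11 and 8.52 in GS, with GS mouse M31 close to the EDL mice (difference 1.45, SE 0.41). It missed p under 0.05 without EDL mouse M11 and without GS mouse M30. The other 17 measured markers of fibroblasts and meninges lay between -0.30 and 0.19 and none of them passed p under 0.05, although 2 were lower without GS mouse M13. Clca3a1, of a gene family that regulates chloride channels, had 8.68, 7.85 and 7.55 against 7.29, 6.62 and 7.00 (difference 1.06, SE 0.35) and missed the threshold without EDL mouse M33 and without GS mouse M13 or M31. Serpinb1a, an inhibitor gene of neutrophil proteases, had 8.89, 7.71 and 8.51 in EDL and 7.05 to 7.18 in GS (difference 1.23, SE 0.31). Tmem132d, a transmembrane protein gene, was at 8.54 to 8.91 against 7.34 to 7.77 (difference 1.10, SE 0.16), and Vwa5a at 9.61 to 10.35 against 8.82 to 9.06 (difference 0.99, SE 0.20). Ppm1j, a protein phosphatase gene, and Tmem38a, a cation channel gene of the endoplasmic reticulum, had small spreads (Ppm1j 9.29 to 9.53 against 8.29 to 8.48, difference 1.03, SE 0.08, and Tmem38a 11.94 to 12 against 11.59 to 11.63, a difference of 0.35 with SE 0.03).

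**Figure D2:**
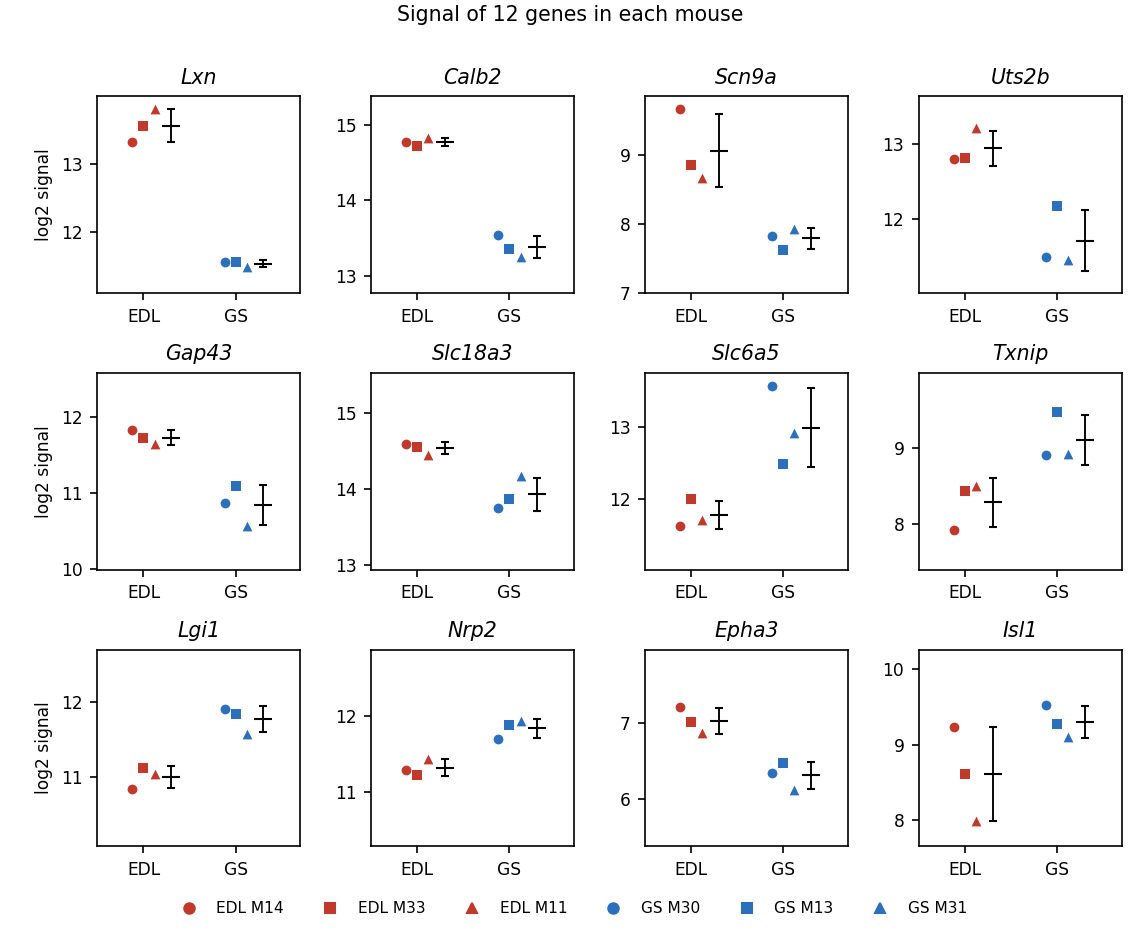
Log2 signal of 12 genes in each of the 6 mice, with EDL mice in red, GS mice in blue and a symbol for each mouse, and the mean with its SD beside the points. The axes have different origins, and Lxn, Calb2, Uts2b, Gap43, Slc18a3 and Epha3 lie higher in all EDL mice, whereas the Isl1 values of the pools overlap.

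Most genes of MN identity had a higher mean in EDL. This held for 11 of 13 measured genes, of which 7 were higher and 0 lower at p under 0.05 (background 8.49% and 3.24%), with a median difference of 0.27. The lowest difference of the list was -0.68, that of the LIM factor gene Isl1 (SE 0.34). It missed the threshold but passed without EDL mouse M14. All 4 genes of acetylcholine handling were among the 7. The vesicular transporter gene Slc18a3 had 14.60, 14.56 and 14.45 in EDL and 13.75, 13.87 and 14.17 in GS (difference 0.61, SE 0.12, adjusted p = 0.339). The choline transporter gene Slc5a7 was at 12.43 to 12.54 against 11.87 to 12.10 (0.48, SE 0.07), the acetylcholinesterase gene Ache at 13.87 to 13.98 against 13.39 to 13.57 (0.47, SE 0.06) and the synthetic enzyme gene Chat at 13.45 to 13.67 against 13.26 to 13.38 (0.26, SE 0.07). In none of the 4 did the pools overlap. The cluster read for Ache has no chromosome in its identifier, and its cluster on chromosome 5, at 9.36 to 9.42 against 9.26 to 9.36, gave 0.06 (SE 0.04) and missed the threshold. Slc18a3 lies inside the Chat gene, on the same strand of chromosome 14 with its start site 1059 bases downstream, so that its probes can also read unspliced Chat RNA. Ret, the signalling receptor for glial cell line-derived neurotrophic factor, was 0.61 higher (14.48 to 14.85 against 13.97 to 14.21, SE 0.12), and its co-receptor gene Gfra1 gave 0.27 (SE 0.12), which missed the threshold but passed without EDL mouse M14 or M33. The intermediate filament gene Prph was 0.46 higher (SE 0.14), with EDL mouse M11, at 14.69, just above the highest GS mouse at 14.63. It missed the threshold without EDL mouse M14 or M33 and without GS mouse M13 or M30. By mouse, the median deviation of the list from the mean of the 6 was 0.28, 0.16 and 0.03 in EDL mice M14, M33 and M11 and -0.18, -0.15 and -0.11 in GS mice M30, M13 and M31, so that the pools did not overlap.

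Peptide genes were the next list. The lists share members, so that some genes are counted on more than 1 of them. Here Uts2b also belongs to MN identity, Ecel1 to axon injury and stress, and Calcb to fast alpha MNs. Uts2b, which encodes a urotensin-related peptide, had 12.80, 12.81 and 13.21 in EDL and 11.50, 12.18 and 11.47 in GS (difference 1.23, SE 0.24, adjusted p = 0.339). Calcb, a gene of calcitonin gene-related peptide, read 14.62, 14.39 and 14.78 against 13.91, 13.74 and 13.94 (0.74, SE 0.12). Ecel1, a membrane endopeptidase gene, was at 11.07 to 11.22 in all EDL mice and at 9.42 to 10.24 in GS (1.24, SE 0.23). Of 27 measured genes of neuropeptides and granins 5 were higher and 2 lower, with a median of 0.16. None was lower without any 1 of EDL mice M11 and M14 and GS mice M13 and M30. Proenkephalin (Penk) was among the lower ones (-0.30, SE 0.09) but missed the threshold without EDL mouse M11 or M14 and without GS mouse M13 or M30. The promoter of Uts2b is shown because it was the only one of the 9 promoters on hand among the 15 largest differences on the EDL side that held the letters of an AP-1 site (TGANTCA, the same on both strands, in capitals, 86 bases before the start site). Of the 15 genes lower in EDL, 2 of 11 promoters held them, and 7.81% of all 32851 did. It covers chr16:27370190-27370489, minus strand, in RefSeq on GRCm38.p6.
Uts2b: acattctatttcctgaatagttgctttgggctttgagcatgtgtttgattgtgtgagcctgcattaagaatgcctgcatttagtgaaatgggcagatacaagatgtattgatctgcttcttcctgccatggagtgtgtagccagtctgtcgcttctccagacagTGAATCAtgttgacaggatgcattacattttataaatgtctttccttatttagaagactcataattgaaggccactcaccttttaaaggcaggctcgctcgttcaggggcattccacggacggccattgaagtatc

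Genes known from axon injury and growth were read as a list. Of 23 measured genes, 17 of them above the negative controls, 9 were higher and 1 lower in EDL at p under 0.05, with a median of 0.07. The median was 0.03 without EDL mouse M33 and 0.04 without EDL mouse M14, and 6 were higher without EDL mouse M11 or M14. Gap43, a growth cone protein gene, had 11.83, 11.72 and 11.64 in EDL and 10.87, 11.09 and 10.56 in GS (difference 0.89, SE 0.15, adjusted p = 0.286). The transcription factor gene Jun read 9.92, 9.73 and 10 against 9.51, 9.47 and 9.21 (0.49, SE 0.11). Hspb1, a small heat shock protein gene, had 8.60, 8.71 and 8.77 against 8.43, 8.37 and 8.41 (0.29, SE 0.05). Ddit3, a transcription factor gene of the response to unfolded proteins, had 10.22, 10.47 and 10.32 against 9.90, 9.83 and 10.09 (0.39, SE 0.10). Its cluster has no chromosome in its identifier, and the Ddit3 cluster on chromosome 10 overlapped between the pools and missed the threshold (0.09, SE 0.06). In the clusters read for Gap43, Jun, Hspb1 and Ddit3 every EDL mouse lay above every GS mouse. Sox11, a transcription factor gene of axon growth, was 0.23 higher (SE 0.07) and missed the threshold without EDL mouse M14. Sprr1a, a gene strongly induced by axotomy, was 0.82 higher, but both of its means lay below the negative controls (5.78 and 4.97), and it missed the threshold without EDL mouse M11 and without GS mouse M13 or M30. Atf3, the classic marker of axon injury, also lay below them, at 5.40 to 5.42 on all 6 arrays. Since the GS received the larger volume, the part of the injection in these values cannot be told apart from that of the muscle. The lower gene of the list was Txnip, which encodes a protein that binds thioredoxin, at 7.91, 8.43 and 8.50 in EDL against 8.90, 9.48 and 8.92 in GS (-0.82, SE 0.24).

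Promoters of 8 of the 9 higher members were on hand, and those of Ddit3 and Hspb1 are shown because both held the letters of a stress-response element. In Ddit3 the AP-1 letters (TGANTCA) lie 242 bases before the start site, and Sprr1a is the other of the 8 with them. In Hspb1 2 copies of a heat shock element (GAANNTTC, the same on both strands) lie 117 and 97 bases before the start site, and Jun is the other of the 8 with it. These 8 letters occur in 7.86% of all promoters. The sequences are from RefSeq on GRCm38.p6, chr10:127290543-127290842 on the plus strand for Ddit3 and chr5:135887669-135887968 on the plus strand for Hspb1, with the motif in capitals.
Ddit3: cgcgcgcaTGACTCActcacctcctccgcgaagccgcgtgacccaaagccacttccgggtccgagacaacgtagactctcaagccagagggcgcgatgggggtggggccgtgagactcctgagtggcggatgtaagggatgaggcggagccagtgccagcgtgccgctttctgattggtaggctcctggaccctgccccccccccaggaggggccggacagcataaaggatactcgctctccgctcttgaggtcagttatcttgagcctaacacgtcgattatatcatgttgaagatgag
Hspb1: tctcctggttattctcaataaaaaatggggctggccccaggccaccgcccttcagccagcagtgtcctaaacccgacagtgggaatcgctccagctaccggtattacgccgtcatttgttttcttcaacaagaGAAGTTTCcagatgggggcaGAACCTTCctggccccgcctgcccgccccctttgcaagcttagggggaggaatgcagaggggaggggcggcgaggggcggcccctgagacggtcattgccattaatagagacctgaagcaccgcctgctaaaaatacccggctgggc

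The axonal cytoskeleton gave small differences, with 11 of 21 measured genes higher and 0 lower (median 0.13). Stmn2, which regulates microtubules in growing axons, was at 16.26 to 16.30 in EDL and 16.00 to 16.04 in GS (0.26, SE 0.03). The tubulin genes Tubb4a (0.37, SE 0.06), Tubb3 (0.37, SE 0.11) and Tuba4a (0.21, SE 0.03) and the neuronal intermediate filament gene Ina (0.45, SE 0.12) were higher as well. The neurofilament light chain gene Nefl was 0.13 higher (SE 0.04). Tubb3 missed the threshold without EDL mouse M14 or M33 and Tuba4a after quantile normalization, and 6 genes of the list passed without M33.

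Guidance and adhesion genes were found on both sides. Of 54 measured axon guidance genes 7 were higher and 6 lower (background 8.49% and 3.24%), with a median of 0.02. Epha3, an ephrin receptor gene, had 7.21, 7.02 and 6.87 in EDL and 6.34, 6.48 and 6.12 in GS (0.72, SE 0.13, adjusted p = 0.31). Higher values were also found for the semaphorin receptor genes Plxna2 (0.50, SE 0.10) and Plxna4 (0.27, SE 0.04), for Unc5d (0.48, SE 0.11) and for Ephb6 (0.40, SE 0.06). On the lower side were Epha6 (-0.59, SE 0.15), the netrin receptor gene Dcc (-0.48, SE 0.09) and the Slit receptor gene Robo1 (-0.24, SE 0.04). Efna3, an ephrin gene, was also lower (-0.39, SE 0.08). Of 37 cadherin genes, which sort motor pools in the embryo, 2 were higher and 3 lower. The share of higher cadherin genes was not above the background of 8.49%. With centred arrays 5 were higher and 2 lower, and without EDL mouse M14 or without GS mouse M13 1 was higher and 2 lower. Cdh6 was at 12.44 to 12.76 in EDL and 12.95 to 13.13 in GS (-0.41, SE 0.10).

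Genes of the limb motor columns and pools, those known from the divisions included, were looked at singly. Of 26 measured members 2 were higher (Fign and Epha3) and 2 lower at p under 0.05 (background 8.49% and 3.24%), with a median of 0.02. The share of higher members was thus near the background. With centred arrays 5 were higher and 1 lower, and without GS mouse M31 4 were higher and 3 lower. The lower ones were Nrp2, a semaphorin receptor gene, at 11.22 to 11.44 in EDL against 11.70 to 11.94 in GS (-0.52, SE 0.09), and Ephb1, an ephrin receptor gene, at 9.35 to 9.38 against 9.44 to 9.53 (-0.12, SE 0.03). The Ephb1 difference missed the threshold with arrays centred on their medians and after quantile normalization, and a second Ephb1 cluster missed it too (-0.05, SE 0.04). Both are known from MNs of the medial division in the embryo. Isl1, the LIM factor of the medial division, had 9.24, 8.61 and 7.99 in EDL and 9.52, 9.28 and 9.10 in GS. Its difference of -0.68 missed the threshold (SE 0.34) but passed without EDL mouse M14, which lay within the range of the GS mice. Epha4, a receptor of the lateral division, was at 10.36 to 10.56 against 10.13 to 10.36 (0.17, SE 0.08), which missed the threshold but passed with arrays centred on their medians and with the mouse numbers as a block (0.23). Lhx1, the LIM factor of the lateral division, lay below the negative controls in both pools (5.92 to 6.10). Among 15 lumbar Hox genes, Hoxc10 was the only one at p under 0.05, at 12.68 to 12.96 in EDL and 12.52 to 12.66 in GS (0.24, SE 0.09), and it missed the threshold without any 1 mouse other than EDL mouse M11 and after quantile normalization. Among 13 cervical and brachial Hox genes Hoxb6 alone passed (-0.20, SE 0.06), and it missed the threshold without EDL mouse M14 or M33 and without GS mouse M31.

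Potassium channel genes were split, with 5 higher and 6 lower of 45 measured (median 0.01). Kcna2, which shapes the axonal action potential, was at 11.78 to 11.81 in EDL and 11.94 to 11.96 in GS (-0.16, SE 0.02). Kcnc1, a channel of fast-spiking neurons, was also lower (-0.27, SE 0.06), and Kcnj3, a channel opened by G proteins, was higher by 0.36 (SE 0.08). The astrocyte channel gene Kcnj10 was lower (-0.25, SE 0.05). Without EDL mouse M33, 3 of the list were higher and 5 lower, and with centred arrays 8 were higher and 5 lower. Among 17 ATP-consuming pumps 7 were higher and 1 lower. They included the proton pump subunits Atp6v1h (0.38, SE 0.06), Atp6v1e1 (0.20, SE 0.03) and Atp6v0d1 (0.23, SE 0.02). Atp6v0d1 was at 12.49 on all 3 GS arrays, which lowers its SE. The plasma membrane calcium pump genes Atp2b1 (0.32, SE 0.06) and Atp2b3 (0.23, SE 0.04) were also higher. The exception was Atp1b2 (-0.48, SE 0.10), the sodium pump subunit of glia.

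Nuclear-encoded genes of energy metabolism had slightly higher means in EDL. Over complexes I to V together 72 of 74 measured genes had a higher mean in EDL, 15 were higher and 0 lower at p under 0.05, and the median difference was 0.14, against 0.01 over all named genes above the controls. The median of the positive controls was higher on the EDL arrays by a similar amount, 0.149. In complex I all 32 means were higher in EDL, and 8 passed p under 0.05 (median 0.17). Ndufb3 gave 13.55, 13.80 and 13.74 in EDL and 13.41, 13.33 and 13.08 in GS (0.42, SE 0.11), and Ndufb6 gave 15.41, 15.43 and 15.52 against 15.15, 15.17 and 14.92 (0.37, SE 0.08). Ndufa1 was 0.23 higher (SE 0.06). Short of the threshold, Uqcrq of complex III gave 0.27 (SE 0.11) and Cox5a of complex IV 0.18 (SE 0.11), where EDL read 15.24 to 15.26 and GS mice M30, M13 and M31 read 15.14, 15.25 and 14.84. Uqcrq passed without GS mouse M30. In complex II, the iron-sulphur subunit gene Sdhb was 0.30 higher (SE 0.08), and in ATP synthase Atp5g3 was 0.22 higher (SE 0.05). Among complex IV genes Cox7a2 was the only one to pass (0.26, SE 0.10), and it missed the threshold without any 1 of the EDL mice. The mean of Cox6a1 was on the lower side (-0.28, SE 0.14), past the threshold only when GS mouse M31 was left out. Cox11, an assembly factor of complex IV that is not in the list, was at 9.63 to 9.97 in EDL and 10.26 to 10.56 in GS (-0.62, SE 0.12).

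The energy genes also varied between the mice of a pool. Complexes I to V had a median deviation from the mean of the 6 arrays of 0.02, 0.16 and 0.04 in EDL mice M14, M33 and M11, and of -0.02, -0.02 and -0.18 in GS mice M30, M13 and M31. Their median difference was 0.08 without GS mouse M31, with 11 genes higher and 1 lower at p under 0.05, and 0.10 with 9 genes higher without EDL mouse M33. For complex I alone the median was 0.10 without GS mouse M31, and 4 genes passed without EDL mouse M33 and 6 without GS mouse M31 or without EDL mouse M14. The median difference of complexes I to V was 0.06 between mice with numbers under 20 and 0.26 between those numbered 30 or more. The ROC area of the control probe sets was higher on all EDL arrays than on all GS arrays, and so was the median of the positive controls. The part of either in these differences was not tested.

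Glycolysis and the citrate cycle gave values of the same size. Of 13 glycolysis genes 5 were higher and 0 lower (median 0.16). Pgk1, which encodes phosphoglycerate kinase, had 13.16, 13.35 and 12.95 in EDL and 12.78, 12.87 and 12.78 in GS (0.35, SE 0.11). It missed the threshold without EDL mouse M14 and without GS mouse M30 or M31. By its identifier this cluster lies on chromosome 12, whereas the gene is on chromosome X. The Pgk1 cluster on X, which is dimmer, read 11.58, 11.66 and 11.43 in EDL and 11.29, 11.33 and 11.29 in GS (0.25, SE 0.06) and kept the threshold without each single mouse. The pyruvate kinase gene Pkm was 0.36 higher (SE 0.10), the lactate dehydrogenase gene Ldha 0.34 (SE 0.10) and the aldolase gene Aldoa 0.17 (SE 0.03). Ldha missed the threshold without EDL mouse M14 or M33. Without EDL mouse M14 2 glycolysis genes passed, and 3 passed without EDL mouse M33, GS mouse M30 or GS mouse M31, with a median of 0.09 without M30. In the citrate cycle 3 of 17 genes were higher and 0 lower (median 0.13), led by the succinate-CoA ligase gene Sucla2 (11.98 to 12.04 against 11.75 to 11.85, difference 0.23, SE 0.04). Among 15 regulators of mitochondrial biogenesis the median was 0.02. Ndn was the only one to pass, at 15.80 to 15.87 in EDL and 15.69 to 15.74 in GS (0.13, SE 0.03), and it missed the threshold after quantile normalization. The coactivator gene Ppargc1a, at -0.27 (SE 0.15), passed only when GS mouse M31 was left out.

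The proteasome, which degrades ubiquitin-tagged proteins, had the largest share of members past the threshold among the 45 lists. All 30 measured subunit genes had a higher mean in EDL, 20 of them passed p under 0.05 and 0 were lower, with a median of 0.20. Psmc5, an ATPase of the regulatory particle, was at 13.85 to 13.88 in EDL and 13.53 to 13.67 in GS (0.28, SE 0.04, adjusted p = 0.268). Psmd8 (0.23, SE 0.04), Psmc2 (0.16, SE 0.03) and Psmd12 (0.26, SE 0.05) were higher as well, and Psmd6 was 0.33 higher (SE 0.07). By mouse the median deviation was 0.11, 0.15 and 0.05 in EDL mice M14, M33 and M11, and -0.08, -0.08 and -0.15 in GS mice M30, M13 and M31, so that the pools did not overlap. The count was 12 without GS mouse M30, 13 without EDL mouse M33 or without GS mouse M31, and up to 20 otherwise, with medians from 0.17 to 0.24. After quantile normalization 15 passed. The median of the positive controls was 0.149 higher on the EDL arrays. Its part in the values of this list and of the ribosome and cytoskeleton lists was not tested.

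Genes of both kinds of ribosome were mostly higher in mean. Of 74 mitochondrial ribosomal protein genes 69 had a higher mean in EDL, and 25 were higher and 0 lower at p under 0.05 (median 0.12). Mrpl46 was at 9.67 to 9.87 in EDL and 9.24 to 9.34 in GS (0.46, SE 0.06). Without GS mouse M31 12 were higher and 1 lower, and without EDL mouse M33 16 were higher. Of 77 listed cytosolic ribosomal protein genes 33 were measured. Of these 6 were higher and 0 lower (median 0.13), led by Rpl12 (12.81 to 13.04 against 12.42 to 12.51, difference 0.43, SE 0.07), and 3 were higher without EDL mouse M33. Without GS mouse M31 the median was 0.07. The Rpl12 cluster lies on chromosome 10 by its identifier, whereas the gene is on chromosome 2. Other members of this list, some of the higher ones included, were also read from clusters on another chromosome. Where such a gene had a cluster on its own chromosome too, that cluster was dimmer and did not always pass the threshold. Transcripts of near-identical ribosomal pseudogenes can bind the same probes. In the SMN complex and the modifiers of SMA 3 of 14 genes were higher and 0 lower (median 0.07). Among them were the Sm protein genes Snrpd3 (12.54 to 12.69 against 12.20 to 12.31, difference 0.34, SE 0.05) and Snrpe (9.49 to 9.66 against 9.36 on all 3 GS arrays, difference 0.23, SE 0.05), whose products the SMN complex loads onto small nuclear RNAs. Smn1, the gene lost in SMA, had the same value of 9.16 on all 6 arrays. In all, 880 clusters each held a single value on the 6 arrays when compared to 5 decimals. The origin of such equal values was not tested, so they are not read as equal expression in the pools.

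**Figure D3:**
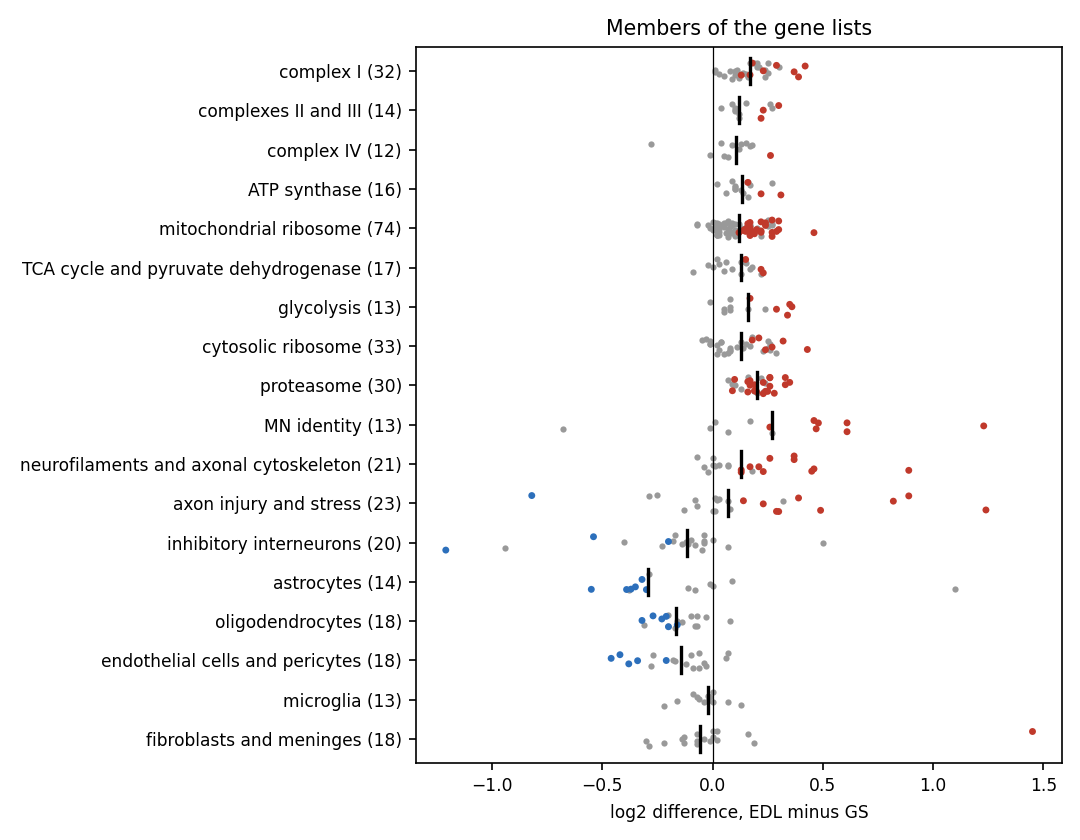
Each point is the log2 difference between EDL and GS MNs of 1 member of a gene list, with the number of measured members in parentheses and the median as a black bar. Red and blue points have an unadjusted limma p under 0.05 with a higher or lower mean in EDL. All 30 proteasome and all 32 complex I genes lie above 0, and most astrocyte, oligodendrocyte and endothelial genes lie below it.

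Marker genes of the cells around MNs mostly had lower means in EDL, 12 of 14 for astrocytes, 17 of 18 for oligodendrocytes and 16 of 18 for endothelial cells and pericytes. In bulk samples of this kind, fewer cells of a type and less RNA per cell cannot be told apart. Of 14 astrocyte genes 6 were lower and 0 higher (background 3.24% and 8.49%), with a median of -0.30. The glutamate transporter gene Slc1a2 had 14.37, 14.64 and 14.42 in EDL and 14.86, 14.87 and 14.74 in GS (-0.35, SE 0.08, adjusted p = 0.414). Slc7a10, an amino acid transporter gene of astrocytes, was at 10.99 to 11.49 against 11.58 to 11.95 (-0.55, SE 0.17) and missed the threshold without EDL mouse M11 or M14 and without GS mouse M13 or M30. Mlc1, a membrane protein gene of astrocyte endfeet, was at 10.87 to 11.14 against 11.22 to 11.43 (-0.37, SE 0.10). Gfap, the filament gene of reactive astrocytes, went the other way and scattered widely, with 10.94, 11.53 and 12.46 in EDL and 10.73, 11.19 and 9.68 in GS, and its difference of 1.10 (SE 0.56) missed the threshold. The adhesion gene Hepacam, which is not in the list but is known from astrocytes, was lower too (10.24 to 10.56 against 10.89 to 11.12, difference -0.59, SE 0.11).

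Of 18 oligodendrocyte genes 6 were lower and 0 higher, with a median of -0.16, and 3 were lower without EDL mouse M14 or without GS mouse M13. Ugt8a, an enzyme gene of myelin lipid synthesis, was at 12.84 to 12.88 in EDL and 13.08 to 13.17 in GS (-0.27, SE 0.03). Aspa, the aspartoacylase gene, had 11.20 on all 3 EDL arrays and 11.44 to 11.64 in GS (-0.32, SE 0.06). The myelin basic protein gene Mbp gave -0.07 (SE 0.05), short of the threshold, which it passed after quantile normalization (-0.12). Of 18 endothelial and pericyte genes 5 were lower and 0 higher (median -0.14), among them the vascular receptor genes Flt1 (8.35 to 8.54 against 8.79 to 8.91, difference -0.38, SE 0.06) and Tek (7.35 to 7.43 against 7.56 to 7.80, difference -0.34, SE 0.07) and the transporter gene Slco1a4 (8.70 to 8.91 against 9.19 to 9.41, difference -0.46, SE 0.08). The endothelial surface antigen gene Ly6c1 was lower as well (-0.42, SE 0.08). Of 13 microglial genes 0 were higher and 0 lower (median -0.02). In the list of perineuronal net and matrix genes 3 of 22 were lower and 0 higher, and 5 were lower without EDL mouse M33. The 3 were Lgi1, a secreted synaptic protein gene (10.84 to 11.12 against 11.57 to 11.90, difference -0.77, SE 0.12), Ptprz1, a receptor phosphatase gene of glia (-0.48, SE 0.11), and Vcan, the versican gene (-0.34, SE 0.09).

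Of 20 inhibitory interneuron genes 3 were lower at p under 0.05 and 0 higher (median -0.11, and -0.07 without GS mouse M30), with 10 of the 20 above the negative controls. The median of the negative controls themselves differed by -0.11, and its part in the values of the dim genes was not tested. Slc6a5, the transporter gene of glycinergic neurons, had 11.63, 12 and 11.71 in EDL and 13.57, 12.49 and 12.91 in GS (-1.21, SE 0.30, adjusted p = 0.424), the largest difference on this side among the genes chosen by size. Slc32a1, which loads GABA and glycine into vesicles, had 7.38, 7.70 and 7.35 in EDL and 9.25, 8.00 and 8.01 in GS (-0.94, SE 0.38) and missed the threshold. It passed without GS mouse M30 (-0.53), with centred or quantile-normalized arrays, with array weights and with all 9 arrays in the fit. The value of GS mouse M30 was the highest of the 6 in both genes. The synthetic enzyme gene Gad1 gave -0.23 (SE 0.09) and missed it as well, but passed without GS mouse M30 or M31, with array weights and with all 9 arrays. Of 19 measured genes of excitatory interneurons and the dorsal horn, 9 of them above the negative controls, 2 were higher and 2 lower (median 0.00). Calb2 was among the higher ones, and 0 were lower without EDL mouse M11 or GS mouse M13.

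The neighbouring-cell genes varied between the mice of a pool. The astrocyte list lay at -0.30, 0.02 and -0.12 from the mean of the 6 in EDL mice M14, M33 and M11 and at 0.09, 0.19 and 0.05 in GS mice M30, M13 and M31. Its median difference was -0.42 between mice with numbers under 20 and -0.02 between those numbered 30 or more. For endothelial and pericyte genes these values were -0.33 and -0.05, and for oligodendrocyte genes -0.21 and -0.08. The astrocyte count was 2 without EDL mouse M11 or M14 or without GS mouse M13, and 3 without GS mouse M30. The endothelial median was -0.08 without EDL mouse M14 and -0.23 without EDL mouse M33. EDL mouse M14, lowest of the 6 in astrocyte and endothelial genes, was the highest in MN identity genes. Split by number in the same way, the median difference was 0.38 and 0.32 for MN identity, 0.14 and 0.26 for the proteasome and 0.06 and 0.26 for complexes I to V. The part of the captured neighbouring cells in the differences of the MN genes was not tested.

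**Figure D4:**
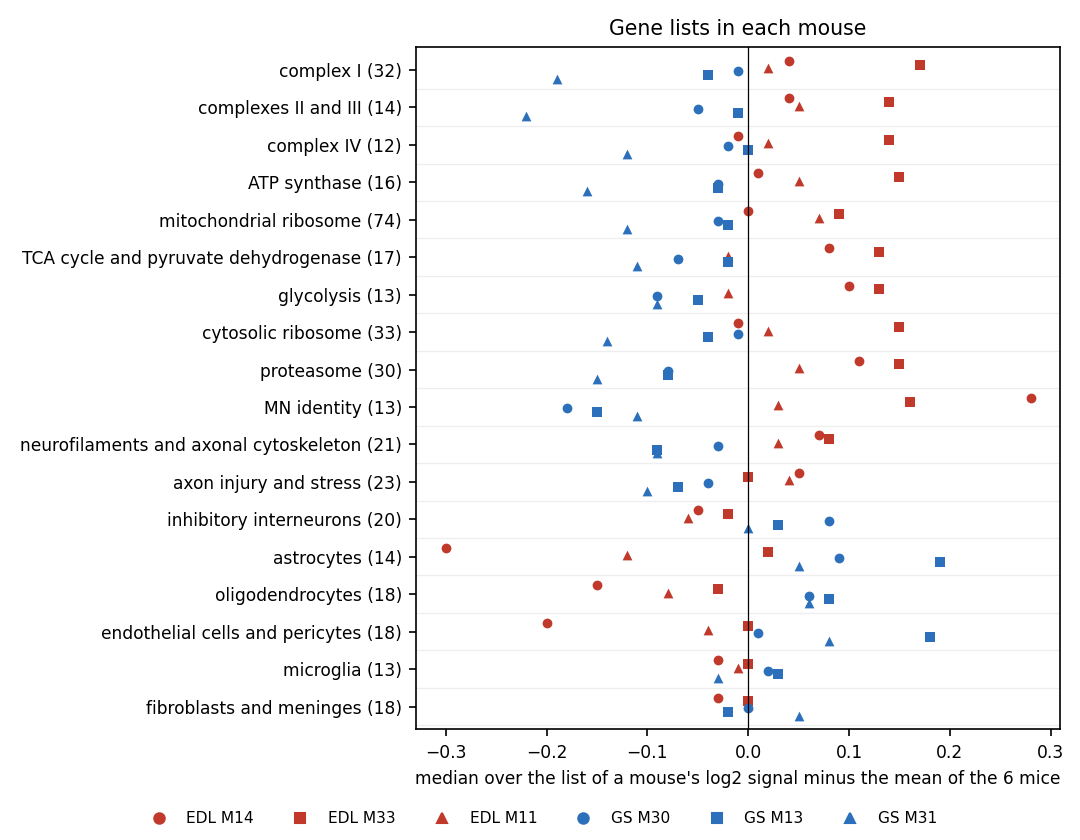
For each gene list, the median over its members of a mouse's log2 signal minus the mean of the 6 mice, with EDL mice in red, GS mice in blue and the number of measured members in parentheses. EDL mouse M33 lies furthest to the right and GS mouse M31 furthest to the left in complexes I to V, and EDL mouse M14 furthest to the left in astrocyte and endothelial genes.

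The other genes with large differences on the GS side belong to no single group. Lamp5, a neuronal lysosome-associated membrane protein gene, had 8.28, 8.36 and 7.88 in EDL and 9.07, 8.89 and 8.76 in GS (-0.73, SE 0.15). Cxcl14, a chemokine gene, was at 9.04 to 9.17 against 9.67 to 9.85 (-0.65, SE 0.07, adjusted p = 0.166). Adam4, a gene of the ADAM family, was at 7.62 to 8.03 against 8.39 to 8.62 (-0.69, SE 0.13), and the tissue factor gene F3 at 9.47 to 9.92 against 10.16 to 10.50 (-0.58, SE 0.15). Dlk1, which is known to promote the fast MN type in mouse and chick, was at 6.67 to 6.81 against 6.95 to 7.83 (-0.61, SE 0.23), and Oprk1, the kappa opioid receptor gene, at 7.01 to 7.41 against 7.55 to 8.12 (-0.59, SE 0.18). Phxr4 (-0.72), Traj14 (-0.67) and Cdh19 (-0.57) complete the 15. Of these, 5 missed p under 0.05 without single mice. Dlk1 did so without any 1 EDL mouse or GS mouse M30, Oprk1 without EDL mouse M11 or M33 or GS mouse M13, and Phxr4 without any 1 GS mouse. Traj14 missed it without EDL mouse M14 or M33 or GS mouse M13 or M31, and Cdh19 without any 1 EDL mouse. The smallest p on this side were those of Pm20d1 (-0.32, SE 0.03), Cxcl14, Ugt8a, the phosphatase subunit gene Ppp2r5a (-0.48, SE 0.06) and Pgap1 (-0.32, SE 0.04), each with adjusted p from 0.166 to 0.216.

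Trophic factors and their receptors were split, 5 higher and 3 lower of 26. Hgf, the gene of hepatocyte growth factor, was at 6.61 to 6.67 in EDL and 6.11 to 6.39 in GS (0.38, SE 0.08) with no overlap. Vegfa, the vascular growth factor gene, was at 9.28 to 9.51 against 9.69 to 9.91 (-0.43, SE 0.09). Without EDL mouse M11 and after quantile normalization 2 of the list were higher and 2 lower, and without GS mouse M13 3 were higher and 1 lower. Of 9 measured genes of gamma and slow MNs 0 were higher and 1, Kcna2, was lower. Of 6 genes of fast alpha MNs only Calcb passed at this threshold. The immediate early genes gave 1 higher and 0 lower of 19, which was Jun.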

How the data were processed

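RNA of laser-captured MNs was amplified with random primers and hybridised to Affymetrix GeneChip Mouse Transcriptome Assay arrays, 1 array per mouse. The authors deposited log2 values per transcript cluster, corrected for background, normalized between arrays and summarised by sst-RMA according to their methods and by RMA in the Transcriptome Analysis Console according to the submitters' processing notes. No genome build was stated. The 6732 array controls were set aside, and the 3 EDL and 3 GS arrays were fitted with limma 3.58.1 in R 4.3.3 (lmFit, contrast of EDL minus GS, eBayes), with Benjamini-Hochberg adjustment over 65956 clusters. Of these, 30638 carried 1 gene symbol in the platform annotation, 2176 several and 33142 none, and 330 symbols were updated from RefSeq. A gene with several clusters was represented by the brightest, which for 11 of 905 genes of the lists and rules lay on another chromosome by its identifier and for 5 was marked unmapped. Signal was not compared between probe sets. The script was tested on simulated data.

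Genes were named by size (the 15 largest differences each way at p under 0.05 with no overlap), by p (the 5 smallest each way), as the leading members of gene lists, or because the study names them. Further genes were picked with their values in view. The comparison and the lists were chosen with earlier results of these data known. Nothing says that the RNA of a mouse was captured or amplified more than once, so p-values rest on the spread between arrays of different mice. In this spread, differences between mice cannot be told apart from those of capture, amplification and array. The small number of arrays limits the precision. The values were also taken with all 9 arrays in the fit, a plain unmoderated test, a trended spread, array weights, centred or quantile-normalized arrays, without dim clusters, without clusters with equal values within a pool (36% of all, compared to 5 decimals), with the mouse numbers (under 20, or 30 or more) as a block, and with each mouse left out. Promoter windows came from RefSeq on GRCm38.p6.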

Additional observations from a re-analysis of the deposited data

How the results depend on the processing

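The count of clusters at adjusted p under 0.05 was 0 under every alternative that was run, the plain unmoderated test included, which gave 1873 higher and 1841 lower at unadjusted p under 0.05. Of 2488 clusters higher and 2699 lower in EDL in the 6-array fit, the counts were 998 and 1423 with all 9 arrays in the fit. Without clusters with equal values within a pool 1640 were higher, and without dim clusters 1690 were lower. With 1 mouse left out 2189 to 2680 were higher and 2200 to 3149 lower. The 3417 clusters without overlap on the higher side became 11921 with centred arrays and 7700 after quantile normalization, and the 4389 on the lower side became 2391 with centred arrays and 2585 without dim clusters. With 1 mouse left out, where 3 values face the remaining pair, 5249 to 6497 and 6696 to 8838 clusters had no overlap. The mouse number block gives no count of this kind. The cause of these shifts was not tested.

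Of 116 genes named at p under 0.05, 0 changed direction. Of them 53 kept the threshold under each alternative that gave a value, although 7 of the 53 lack a value for at least 1 of the 15 alternatives, while 55 missed it with all 9 arrays in the fit, 18 without some mouse and 7 with the mouse number block. Of 16 named genes that missed the threshold, 10 passed it under some alternative, 1 of them (Epha4) with the block. Smn1, equal on all 6 arrays, gave 0.04 with centred arrays and 0.01 after quantile normalization, and Atf3 gave 0.00 without GS mouse M13. Of 20 lists with a median at least 0.10 from 0, 2 (blood and sex-linked genes, not described here) lost that sign under some alternative. No paired analysis was possible because no mouse number occurs in both pools.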
